A study of Homo sapiens with 6 samples.

Results

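The BCL2 family was compared between PC9/gef, a gefitinib-resistant line, and PC9, the gefitinib-sensitive lung adenocarcinoma line from which it was selected under rising doses of the drug. Gefitinib blocks the kinase of the EGF receptor. RNA of 3 PC9/gef and 3 PC9 samples, called biological replicates in the labels, was hybridized to Affymetrix U133 plus 2.0 arrays, 1 array per sample. Both lines were grown in the same serum-containing medium, and whether PC9/gef cells were in gefitinib at harvest is not given in the sources used here. Each line is 1 line, so the tests measure the spread between samples of that line. The members are the 10 genes BCL2, BCL2L1, MCL1, BAX, BAK1, BOK, BCL2L11 (BIM), PMAIP1 (NOXA), BIK and BMF, taken through every probe set that the array annotation gives to 1 of these symbols alone. This gave 30 of 54613 probe sets, and 10 of 19775 genes.

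Proteins of the BCL2 family decide whether the outer membrane of mitochondria stays closed. The pore-forming members BAX, BAK1 and BOK can open it and release cytochrome c. The anti-apoptotic members BCL2, BCL2L1 (BCL-XL) and MCL1 hold BAX and BAK1 in check. The BH3-only members BCL2L11, PMAIP1, BIK and BMF bind and neutralize the anti-apoptotic ones. In lung cancer cells with EGFR mutations, BIM is known as a mediator of death after the receptor is blocked, and NOXA is known to bind MCL1 with preference. Much of this control acts on the proteins, by phosphorylation and degradation, which arrays do not measure.

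The promoters of 3 members are shown because they belong to the gene with the largest rise (PMAIP1), to a pore-forming gene that rose (BAX) and to BIM, the best-known member in this setting (BCL2L11). Each runs from 250 bases before to 50 bases after the start site in RefSeq (GRCh38.p14), in the direction of transcription, at chr18:59899746-59900045 for PMAIP1, chr19:48954625-48954924 for BAX and chr2:111120664-111120963 for BCL2L11, all on the plus strand. Capitals mark 3 motifs searched on both strands, CGTCA (the core bound by CREB and ATF factors), CACGTG (the E-box) and GTAAACA (bound by FOXO factors).
PMAIP1: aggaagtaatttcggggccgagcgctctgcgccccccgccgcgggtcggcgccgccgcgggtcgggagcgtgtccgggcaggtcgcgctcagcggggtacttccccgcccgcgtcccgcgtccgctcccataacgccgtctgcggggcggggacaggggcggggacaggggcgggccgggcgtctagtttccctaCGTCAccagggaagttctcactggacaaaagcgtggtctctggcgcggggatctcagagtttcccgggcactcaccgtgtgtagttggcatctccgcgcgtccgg
BAX: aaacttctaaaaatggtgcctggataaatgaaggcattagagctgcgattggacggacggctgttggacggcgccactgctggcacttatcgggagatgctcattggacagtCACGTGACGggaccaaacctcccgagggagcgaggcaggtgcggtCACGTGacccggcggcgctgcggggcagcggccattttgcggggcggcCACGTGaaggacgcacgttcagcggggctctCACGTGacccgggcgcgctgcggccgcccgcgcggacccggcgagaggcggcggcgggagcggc
BCL2L11: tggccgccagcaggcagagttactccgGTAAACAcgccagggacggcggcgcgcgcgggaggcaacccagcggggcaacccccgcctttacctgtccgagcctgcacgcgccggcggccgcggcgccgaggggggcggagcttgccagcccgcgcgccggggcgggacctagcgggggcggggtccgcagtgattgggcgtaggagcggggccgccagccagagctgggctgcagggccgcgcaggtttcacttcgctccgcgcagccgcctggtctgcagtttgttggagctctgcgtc
The PMAIP1 window holds 1 CGTCA, which starts 55 bases before the start site. The BAX window holds 4 CACGTG, the nearest starting 14 bases and the farthest 138 bases before the start site, and the farthest overlaps a TGACG, the CGTCA core on the other strand. The BCL2L11 window holds 1 GTAAACA, 223 bases before the start site. Among 35116 promoter windows of the same length, 24.6% hold CGTCA, 7.26% hold CACGTG and 3.42% hold GTAAACA. Of the 10 windows of the 8 members in the RefSeq table, only those of BAX and BCL2L11 hold the E-box and the FOXO motif, in that order, while CGTCA is also found in 1 window each of BCL2, BCL2L1 and BMF. MCL1 and BIK were not searched. The decamer consensus of p53 is found in 6.63% of all windows and, among the members, in that of BAK1. A match is a description of these letters, not evidence of binding.

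Values are log2 signals, background-corrected and normalized by the authors. The probe set with the highest 6-array mean stood for its gene, which was called background in a line whose mean did not exceed 2.65, the level under which 95% of 135 probe sets for olfactory receptors had their means. Gene calls are from limma with Benjamini-Hochberg adjustment over all 54613 probe sets, at an adjusted p under 0.05. In these bulk samples a change per cell and a change in the share of cells cannot be told apart. The lines stood apart over all probe sets, with r of at least 0.9992 within a line and at most 0.9944 between lines. Epithelial markers lay far above background in both lines (6 of 6, with means from 11.81 to 15.09 in PC9/gef and from 11.62 to 15.20 in PC9), whereas 3 of 4 lung lineage markers (NKX2-1, NAPSA and SFTPC), 5 of 6 fibroblast markers and all 3 measured leukocyte markers lay at background level. The summed log2 level of the fibroblast list ranged from 20.56 to 20.68 in PC9/gef and from 19.99 to 20.41 in PC9, with COL1A1, at a mean of 8.46 in PC9/gef and 7.94 in PC9, the only marker of the list above background. The part of these markers in the results was not tested.

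PMAIP1, BAX and BOK were higher in PC9/gef, no member was lower, and PMAIP1 was the only member that changed more than 2-fold. PMAIP1 was 2.48-fold higher, BAX 1.41-fold and BOK 1.35-fold. Of the 10 genes, 3 were higher, 6 did not pass the test and 1, BMF, was at background in both. Over the 11955 genes above background level in at least 1 line, 20.9% were higher, 19.5% were lower, 2.55% were over 2-fold higher and 2.22% over 2-fold lower. The 3 of 9 members that were higher, 1 of them over 2-fold, stand against these shares, of which 20.9% and 19.5% are themselves large. The median log2 change of the 9 members above background was 0.16, against -0.0098 over all such genes. When probe sets at background level were left out of the fit, 6 of the members were higher, BCL2L11, BIK and MCL1 being added, against 26.1% of all genes above background.

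**Figure D1:**
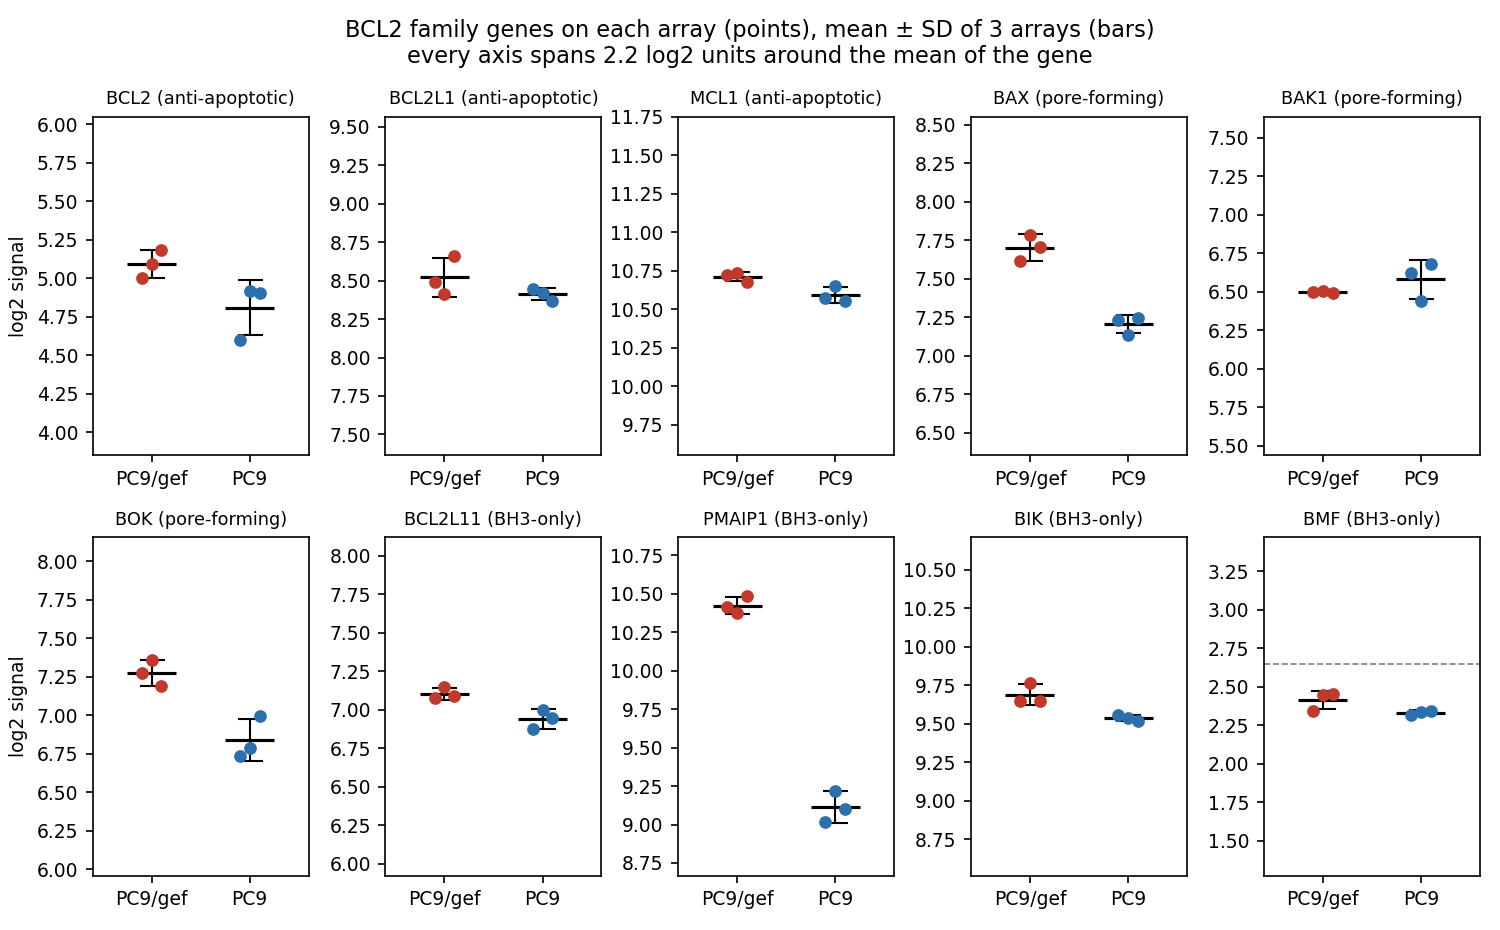
Log2 signal of the 10 member genes on each array, with PC9/gef on the left and PC9 on the right of each panel. Points are arrays, bars are the mean ± SD of 3 arrays, and the dashed line in the BMF panel is the background level. PMAIP1 shows the widest gap, and the arrays of the lines overlap for BCL2L1, BAK1 and BMF.

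PMAIP1, which encodes the BH3-only protein NOXA, had log2 signals of 10.41, 10.37 and 10.48 on the PC9/gef arrays, against 9.02, 9.22 and 9.10 on the PC9 arrays. The lowest PC9/gef array was 1.15 log2 units above the highest PC9 array. Its mean was 10.42 ± 0.057 in PC9/gef and 9.11 ± 0.10 in PC9 (SD, n = 3 each), a log2 change of 1.31 (standard error 0.064, 95% interval 1.14 to 1.48, adjusted p = 0.00083 from limma). The second probe set of the gene gave 10.11, 10.01 and 10.20 in PC9/gef, against 8.46, 8.59 and 8.52 in PC9. On this probe set PMAIP1 was 2.998-fold higher (log2 change 1.58, 95% interval 1.42 to 1.75, standard error 0.063, adjusted p = 0.00053). Both probe sets of PMAIP1 rose, and their 95% intervals overlapped. Only 1.3% of the genes above background had a larger upward change. PMAIP1 lies on chromosome 18. Of the 10 nearest genes above background, 5 on each side, 6 were higher and 1 was lower in PC9/gef. Over all genes above background, 20.9% were higher and 19.5% lower. The 10 neighbours had log2 changes from -0.60 to 0.83 and a median of 0.29. The change of PMAIP1 was above that of each of these neighbours, and whether the neighbourhood bears on it was not tested. Both probe sets have names ending in _s_at, which can bind several transcripts, and PMAIP1 has no other probe set.

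Of the other BH3-only genes, BCL2L11 and BIK had small positive changes that did not pass, and BMF was not detected above background. BCL2L11, which encodes BIM, had log2 signals of 7.08, 7.15 and 7.09 in PC9/gef, against 6.87, 6.997 and 6.95 in PC9. Its arrays did not overlap, with a gap of 0.079. The log2 change was 0.16 (standard error 0.041, 95% interval 0.056 to 0.27, adjusted p = 0.063). BCL2L11 has 7 probe sets. The other 3 of them above background had log2 changes of 0.072, 0.24 and -0.094, with overlapping arrays, and the remaining 3 were at background in both. The mean over all 7 changed by 0.050 on the log2 scale (adjusted p = 0.26). No probe set of BCL2L11 was lower in PC9/gef by the test.
BIK, a BH3-only protein of the endoplasmic reticulum, had log2 signals of 9.65, 9.77 and 9.65 in PC9/gef, against 9.56, 9.54 and 9.52 in PC9. The log2 change was 0.15 (standard error 0.039, adjusted p = 0.070), with a gap of 0.092 between the lines. It passed without PC9/gef replicate 2 (adjusted p = 0.025). BMF, which binds the dynein light chain in resting cells, had 2.34, 2.44 and 2.45 in PC9/gef and 2.32, 2.33 and 2.35 in PC9, all at background level. No change can be read for BMF at this signal.

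Of the pore-forming genes, BAX and BOK rose and BAK1 did not. BAX had log2 signals of 7.61, 7.78 and 7.71 on the PC9/gef arrays, against 7.23, 7.14 and 7.25 on the PC9 arrays. The means were 7.70 ± 0.086 in PC9/gef and 7.20 ± 0.059 in PC9 (SD, n = 3 each; log2 change 0.50, standard error 0.057, 95% interval 0.34 to 0.65, adjusted p = 0.0080). Its second probe set gave 7.65, 7.65 and 7.64 in PC9/gef, against 7.09, 7.10 and 7.31 in PC9 (log2 change 0.48, standard error 0.069, adjusted p = 0.015). The lines lay apart on both probe sets of BAX, by 0.37 and 0.33 log2 units. Of its 10 nearest genes above background on chromosome 19, 4 were higher and 1 was lower, against 20.9% and 19.5% of all such genes.
BOK, a pore-forming protein that can act without BAX and BAK1, had 7.28, 7.36 and 7.19 in PC9/gef, against 6.73, 6.79 and 6.997 in PC9. The means were 7.28 ± 0.083 in PC9/gef and 6.84 ± 0.14 in PC9 (SD, n = 3 each; log2 change 0.44, standard error 0.089, 95% interval 0.20 to 0.68, adjusted p = 0.042). PC9 replicate 3 was the highest PC9 array, and still 0.20 below the lowest PC9/gef array. The call was lost without PC9 replicate 1 (adjusted p = 0.12) or 2 (0.14) and without PC9/gef replicate 1 (0.12), 2 (0.079) or 3 (0.091), and held without PC9 replicate 3 (0.029). The second probe set of BOK was at background in both lines and changed by -0.00033 on the log2 scale. None of the 10 nearest genes above background of BOK was higher, and 4 were lower, against 20.9% and 19.5% of all such genes.
BAK1 had 6.50, 6.50 and 6.49 in PC9/gef, against 6.62, 6.44 and 6.68 in PC9. The PC9/gef arrays lay within the range of the PC9 arrays, and the log2 change was -0.084 (standard error 0.069, 95% interval -0.27 to 0.10, adjusted p = 0.42). Without PC9 replicate 2, the lowest PC9 array, BAK1 was lower (log2 change -0.15, adjusted p = 0.036).

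None of the 3 anti-apoptotic genes passed the test. MCL1, which encodes the partner of NOXA, had log2 signals of 10.72, 10.73 and 10.68 in PC9/gef, against 10.57, 10.65 and 10.55 in PC9. The arrays did not overlap, by 0.027, and the log2 change was 0.12 (standard error 0.032, 95% interval 0.033 to 0.21, adjusted p = 0.075). It passed without PC9 replicate 2 (adjusted p = 0.045) and as the mean over the 6 probe sets of the gene (log2 change 0.097, adjusted p = 0.022). The largest estimate among its probe sets was 0.44, with 6.02, 6.04 and 6.38 in PC9/gef and 5.83, 5.73 and 5.55 in PC9 (adjusted p = 0.094). The other probe sets of MCL1 above background had log2 changes of 0.12, -0.0013 and -0.090, and the remaining 1 was at background in both lines.
BCL2L1, which encodes BCL-XL, had 8.49, 8.41 and 8.66 in PC9/gef, against 8.44, 8.42 and 8.37 in PC9. The arrays overlapped (log2 change 0.11, 95% interval -0.083 to 0.30, adjusted p = 0.33), and its other 3 probe sets had log2 changes of -0.11, -0.15 and -0.25, none of which passed. The probe sets of BCL2L1 thus differed in sign, and no direction can be given for the gene. The other 3 were dimmer, and the one at -0.25 had means of 2.65 in PC9/gef and 2.90 in PC9, near background level.
BCL2, the founding member, had 5.00, 5.09 and 5.18 in PC9/gef, against 4.60, 4.92 and 4.90 in PC9. The log2 change was 0.28 (standard error 0.11, 95% interval -0.013 to 0.58, adjusted p = 0.14). Its other probe set above background had a log2 change of -0.042, and 2 lay at background level. BCL2 lies on chromosome 18 like PMAIP1. Of its 10 nearest genes above background, 6 were higher and 1 was lower, against 20.9% and 19.5% of all such genes. The log2 changes of these 10 neighbours ran from -2.26 to 0.82, and whether they include neighbours of PMAIP1 was not examined. Among the 10 nearest genes of MCL1, 4 were higher and 1 was lower, the same counts as for BAX. These counts were 2 and 1 for BAK1, 2 and 4 for BIK, 2 and 3 for BCL2L11, and 0 and 2 for BCL2L1.

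**Figure D2:**
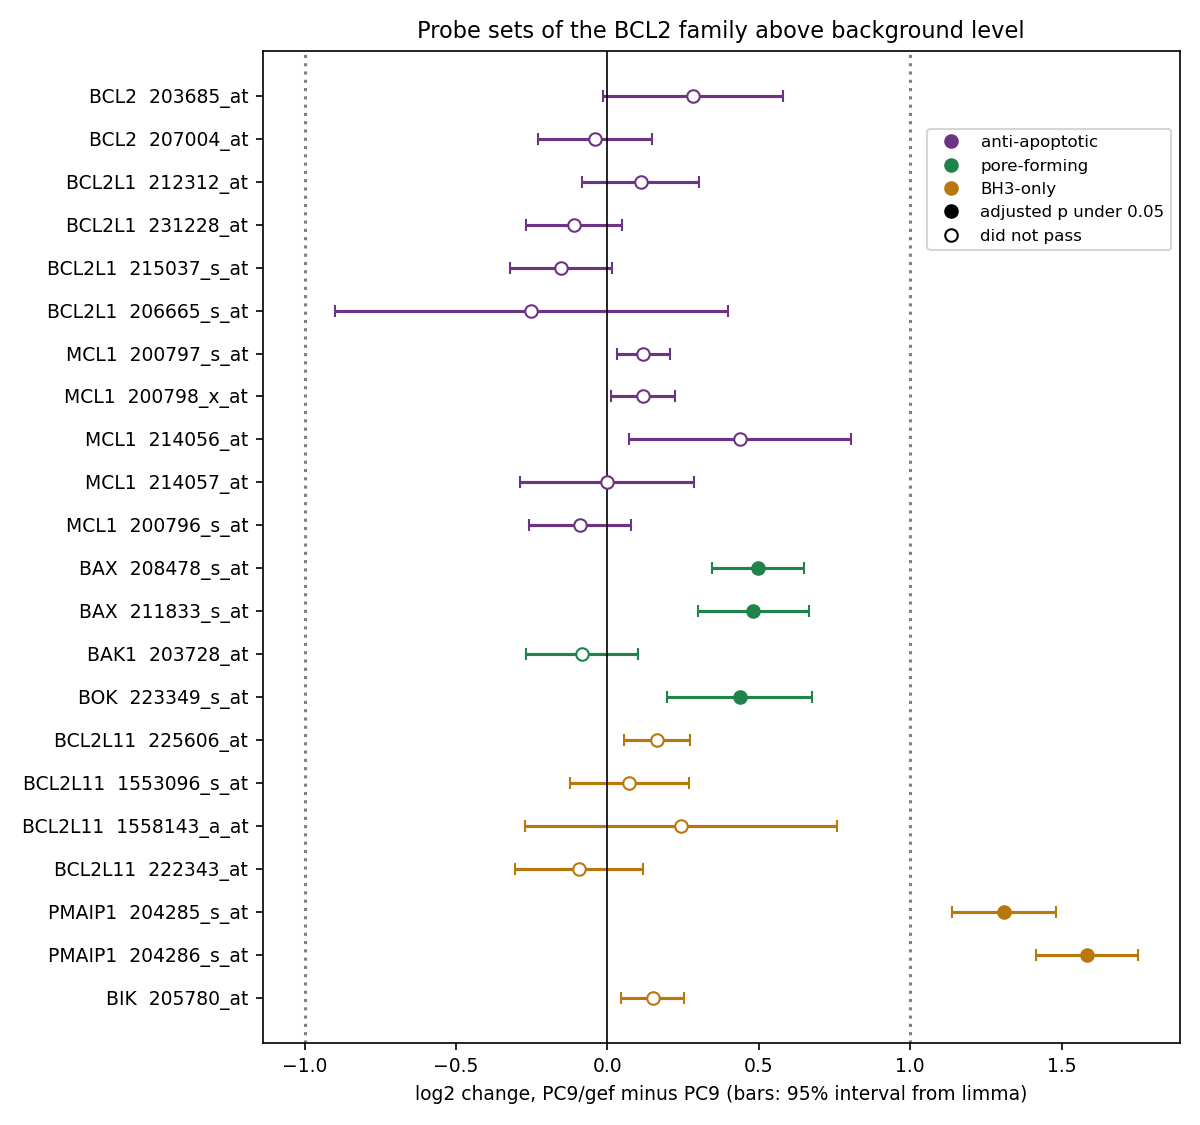
Change of the log2 signal (PC9/gef minus PC9) of the 22 member probe sets above background level in at least 1 line, with 95% intervals from limma. Filled points passed at an adjusted p under 0.05, and dotted lines mark a 2-fold change. The 2 probe sets of PMAIP1 lie beyond the 2-fold line, and the 2 of BAX and 1 of BOK are the other filled points.

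Taken by probe set, 5 of the 30 were higher and none lower, while 17 missed the threshold and 8 were at background. Over the 25348 probe sets above background, 16.4% were higher and 16.5% lower. These shares leave out probe sets at background, whereas the 30 member probe sets include the 8 at background. Probe sets of 1 gene share their transcript, so these are not independent. The 5 were 3 without PC9 replicate 1, PC9/gef replicate 1 or PC9/gef replicate 3. By gene, the arrays of the lines did not overlap for 7 of the 9 members above background, all of them higher in PC9/gef, while 31.2% of all genes above background had non-overlapping arrays with PC9/gef higher and 33.8% with PC9/gef lower. The 4 of these 7 that missed the threshold (BCL2, MCL1, BCL2L11 and BIK) had gaps from 0.027 to 0.092 log2 units between the lines.

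**Figure D3:**
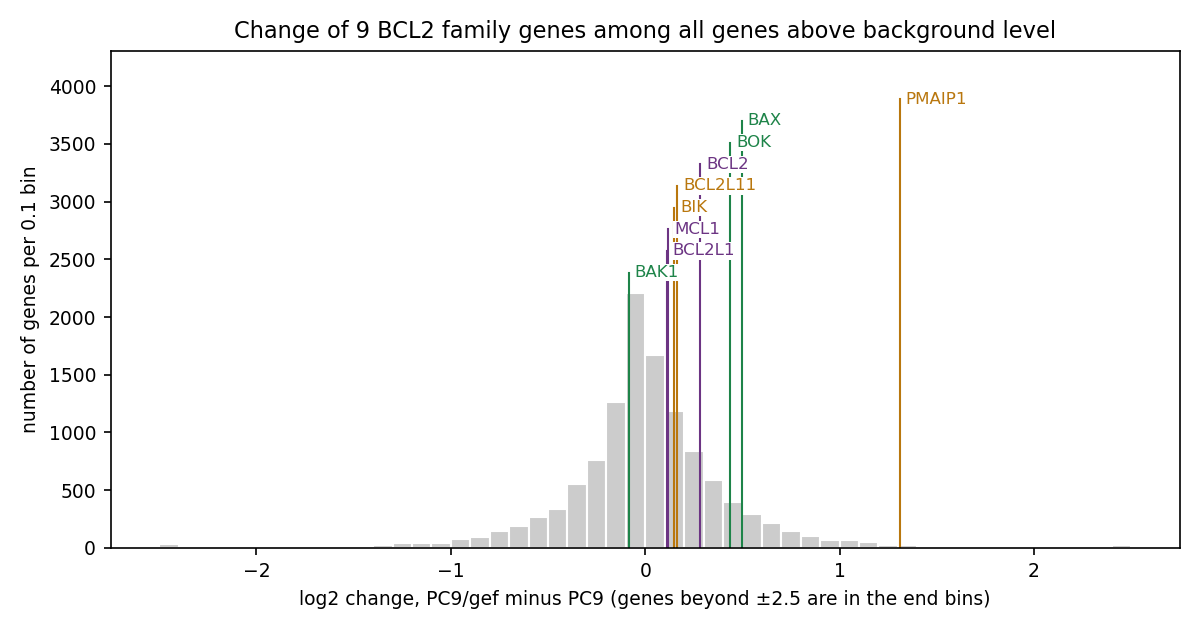
Distribution of the change in log2 signal (PC9/gef minus PC9) over the 11955 genes above background level, with the 9 members above background marked by lines whose height only separates the names. PMAIP1, at 1.31, lies far out in the upper tail, BAX and BOK at 0.50 and 0.44 lie on its shoulder, and the other 6 lie between -0.084 and 0.28.

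Other genes of the pathway moved in both directions, all by less than 2-fold but for ATF3. The shares to read their counts against are again the 20.9% of all genes above background that were higher and the 19.5% that were lower. These shares leave out genes at background, whereas the lists include 5 such genes among the further BCL2 family and 1 among the regulators. Of 12 further measured BCL2 family genes, 5 were higher and none lower, while 2 missed the threshold and 5 were at background, with a median log2 change of 0.23 in those above background. BNIP3L, a receptor on mitochondria that mediates their removal, had 9.80, 9.76 and 9.82 in PC9/gef, against 9.39, 9.32 and 9.28 in PC9 (log2 change 0.46, adjusted p = 0.0027). Its relative BNIP3 rose by 0.29 on the log2 scale (adjusted p = 0.013) and BCL2L13, also a mitochondrial protein, by 0.43 (adjusted p = 0.025). BCL2L2, which encodes the anti-apoptotic BCL-W, rose by 0.23 (adjusted p = 0.040). These 4 had the largest changes among the 5 of the list that passed.
Of 12 measured caspase, apoptosome and IAP genes, 1 was higher, 5 were lower and 6 did not pass, with a median log2 change of -0.12. BIRC5, which encodes survivin, an inhibitor of apoptosis that is also needed for mitosis, had 11.18, 11.27 and 11.15 in PC9/gef, against 11.47, 11.51 and 11.44 in PC9 (log2 change -0.28, adjusted p = 0.016). HTRA2 and DIABLO, which leave the mitochondria and bind IAPs, fell by 0.20 and 0.19 on the log2 scale (adjusted p = 0.025 and 0.016), and the executioner caspase gene CASP6 by 0.20 (adjusted p = 0.0063). All these changes were under 2-fold.
Of 17 measured genes of factors that regulate the members, 3 were higher, 2 were lower, 11 did not pass and 1 lay at background level. ATF3, a stress-induced factor of the ATF family, had 6.78, 6.79 and 6.81 in PC9/gef, against 4.78, 5.33 and 5.11 in PC9. Its log2 change was 1.72 (3.29-fold, standard error 0.15, adjusted p = 0.0039), the only change over 2-fold in the 3 lists. FOXO3, a forkhead factor that activates BCL2L11, had 11.81, 11.80 and 11.81 in PC9/gef, against 11.34, 11.37 and 11.32 in PC9 (log2 change 0.46, standard error 0.015, adjusted p = 0.00035). FOXO1, which is related, rose by 0.30 (adjusted p = 0.0100). DYNLL1, the dynein light chain that holds BIM, fell by 0.14 (adjusted p = 0.014). ATF4, also of the ATF family, was the other lower gene of this list (log2 change -0.082, adjusted p = 0.028). Over the 3 lists together 9 genes were higher and 7 were lower, beside shares of 20.9% and 19.5% over all genes above background. These totals pool lists that differed in direction. The further BCL2 family genes had 5 higher and none lower, and the caspase, apoptosome and IAP genes had 1 higher and 5 lower. The counts were not tested against the shares. Over the 3 lists, 5 genes were higher and 2 lower without PC9 replicate 1 or 2. Without PC9 replicate 3, PC9/gef replicate 1 or PC9/gef replicate 3, 2 or 3 genes were lower.

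**Figure D4:**
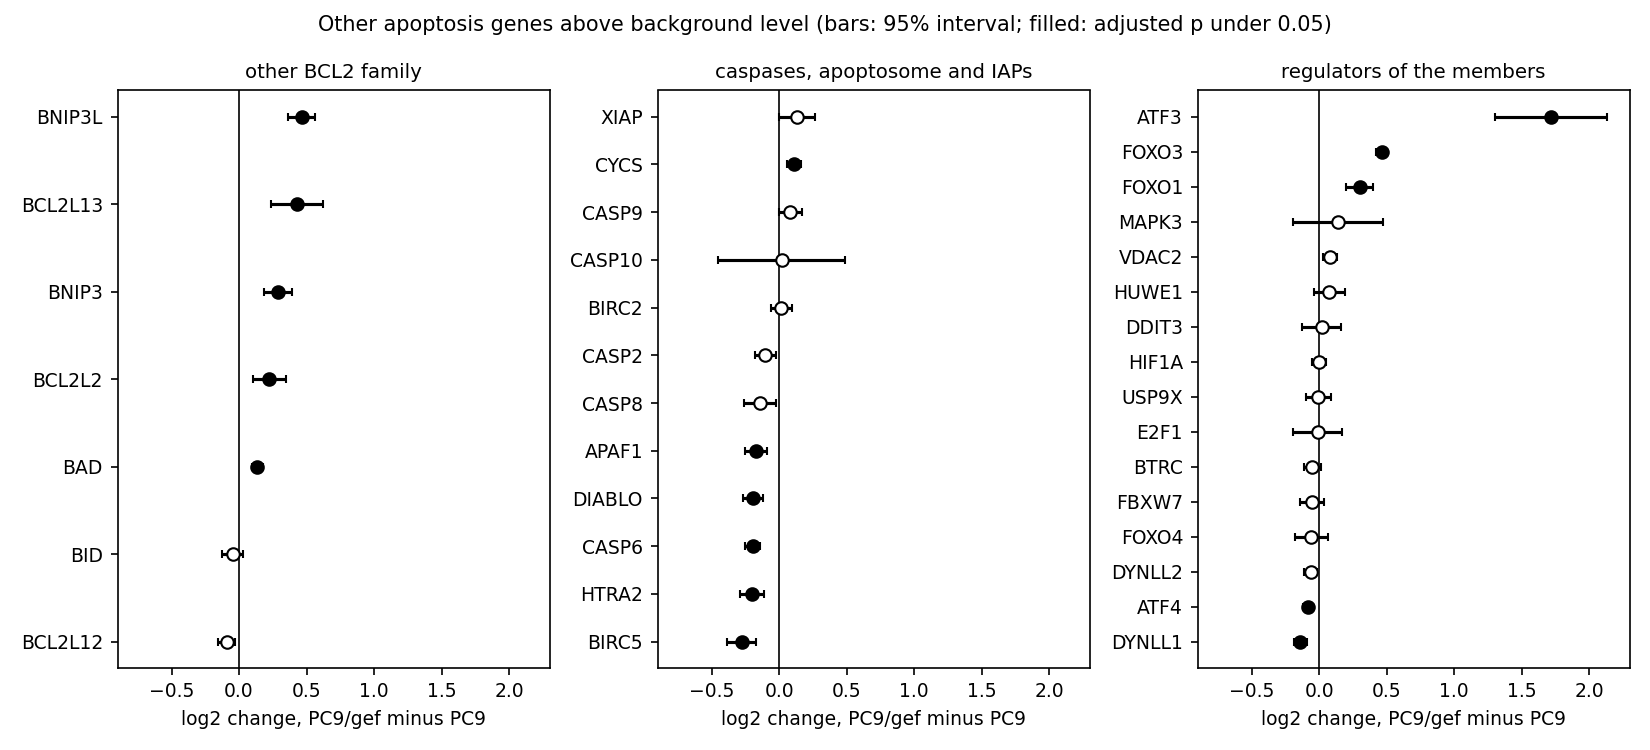
Change of the log2 signal (PC9/gef minus PC9) of the other apoptosis genes above background level in 3 lists, with 95% intervals from limma and filled points at an adjusted p under 0.05. Apart from ATF3, at 1.72, all lie between -0.28 and 0.46.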

How the data were processed

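The authors read the arrays, processed the raw data and deposited 1 log2 signal per probe set and sample. GC-RMA in GeneSpring GX is named in the supplementary methods and RMA in the submitters' processing notes, with versions not given in the sources used here. All 6 arrays hold practically the same sorted values, from 1.65 to 15.72, so no further normalization was applied, and depth is not defined for arrays, whose number limits the precision. After leaving out 62 controls, 54613 probe sets were fitted with limma 3.58.1 under R 4.3.3 (lmFit and eBayes, trend and robust off), and checked on simulated arrays. Probe sets were named by the platform annotation, 41091 to 1 gene, 1801 to several and 11721 to none. Some planned list genes were not analysed here. Promoter windows are from RefSeq (GRCh38.p14). Figures used matplotlib 3.10.9 under Python 3.11.15.

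The members, lists and tests were chosen with earlier results of these data known. All 10 members are named, with each of their probe sets either given by value or counted. From each of the 3 lists up to 4 genes that passed are named, taken by size of change, and ATF4 is named in addition. The promoter motifs, the neighbours and the 3 promoters shown were chosen after the values were seen. Alternatives were median centring, quantile normalization, moderation with a trend or robust, leaving out dim probe sets, a higher background level, the replicate number as a block, each array left out in turn, the methods' t-test, a 2-fold threshold without a test, treat against 1.5-fold, the mean over a gene's probe sets, and leaving out _x_at and _s_at probe sets.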

Additional observations from a re-analysis of the deposited data

How the results depend on the processing

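PMAIP1 kept its direction and its call under every alternative that gave it a value, with log2 changes from 1.26 to 1.45. Members higher numbered 3 as reported, 6 with dim probe sets left out (9 probe sets in place of 5), 1 with the replicate number as a block (2 probe sets), 1 over 2-fold without a test or by treat against 1.5-fold (2 probe sets each), and 0 without _x_at and _s_at probe sets. In the last setting PMAIP1 and BAX have no probe set, and BOK is read from one at background level (log2 change -0.00033). With 1 array left out, 2 to 3 members were higher and 0 to 1 lower (3 to 6 and 0 to 1 probe sets). The members counted were not always the same. Without PC9 replicate 2 MCL1 passed in place of BOK, and without PC9/gef replicate 2 BIK passed in place of BOK. Genes of the 3 pathway lists numbered 9 higher and 7 lower as reported, 3 and 1 with the block, 1 and 0 over 2-fold, 0 and 0 by treat, 5 to 8 and 2 to 6 with 1 array left out, and 4 lower once _s_at and _x_at probe sets were dropped. With the mean over a gene's probe sets, 4 members were higher, and 9 pathway list genes were higher and 10 lower. Over all probe sets, 4154 were higher and 4192 lower as reported, 2018 and 2096 with the block, 519 and 457 over 2-fold, 328 and 319 by treat, and 2881 to 3844 and 2839 to 4351 with 1 array left out. The cause of these differences was not tested. Same-numbered samples of the lines did not deviate together (r from -0.026 to 0.047), and differently numbered ones had r from -0.066 to 0.050. The labels state no pairing, and these values cannot show whether same-numbered samples were handled together. BAX kept its call without each array in turn (adjusted p from 0.017 to 0.042), but with the block BAX (0.097) and BOK (0.20) lost theirs. The methods' t-test, trend, robust moderation, quantile normalization and centring kept 3 members higher. The higher background level of 6.67, the 99th percentile of the olfactory receptor means, also kept 3 members higher. At that level BCL2 (means 5.09 in PC9/gef and 4.81 in PC9) and BAK1 (6.50 and 6.58) lie at background too. Signal over background limits BMF and the dim probe sets of BCL2, BCL2L1, BOK, MCL1 and BCL2L11.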
